A study of Mus musculus with 16 samples.

Results

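The CXXC zinc finger is a short protein module that holds a pair of cysteine clusters and binds DNA at CpG dinucleotides that carry no methyl group. The targeted gene of this study, Cxxc1, encodes Cfp1, a CXXC finger protein of the Set1 histone H3K4 methyltransferase complex. The 6 genes described here, Kdm2a, Kdm2b, Fbxl19, Cxxc4, Cxxc5 and Mbd1, encode CXXC finger proteins that are neither Cfp1, nor DNA or histone methyltransferases, nor Tet enzymes. They were taken as a list of names, matched by symbol to the gene identifiers of the count tables, and all 6 were found among 22375 genes. All 6 also passed the filter on low counts that left 15758 genes for testing. The RNA came from WT mouse embryonic stem (ES) cells (line E14Tg2a) and from Cfp1-/- ES cells, all labelled as strain 129/OLA. The cells were either untreated or given doxorubicin, a topoisomerase poison that breaks DNA, for 6 h. Both lines were grown in serum with LIF (leukemia inhibitory factor) on gelatin, and each of the 4 groups held 2 biological replicates sequenced in 2 runs each. The treatment protocol gives the dose as 1 μM and the sample label as 1 mM. Each genotype was represented by a single line, so the loss of Cfp1 and any other difference between the lines cannot be told apart.

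CXXC fingers bring their proteins to CpG islands, the CpG-rich and mostly unmethylated stretches found at many promoters. Kdm2a and Kdm2b are JmjC-domain demethylases of histone H3 lysine 36 (H3K36), and in ES cells Kdm2b also carries the variant polycomb complex PRC1.1 to CpG islands. Fbxl19 is a related F-box protein without the JmjC domain that binds CpG islands and the kinase module of Mediator. Cxxc4 (also called Idax) and Cxxc5 (Rinf) are small proteins that bind Dishevelled in the Wnt pathway, and Cxxc4 has been linked to the turnover of Tet2 protein. Mbd1 joins CXXC fingers to a methyl-CpG binding domain and works as a transcriptional repressor.

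The coding sequences of the cysteine clusters were found by their cysteine spacing, and those of 4 genes were compared. A script searched the annotated coding sequences for both clusters of a finger and found them in 4 of 4 coding transcripts of Kdm2a, 5 of 10 of Kdm2b, 2 of 2 of Fbxl19, 2 of 2 of Cxxc4, 1 of 1 of Cxxc5 and 3 of 3 of Mbd1. Gene-level counts cannot tell Kdm2b transcripts with the finger from those without it. Up to 3 fingers were found in a transcript of Mbd1 and 1 in those of the other genes. The clusters of 4 genes are printed, those of Cxxc4 and Fbxl19 because these genes were called in the responses of both lines, and those of Kdm2a and Kdm2b because they are the closest relatives of Fbxl19. Each line is the coding strand 5′ to 3′ from the NCBIM37 genome, with the cysteine codons in capitals.
Kdm2a, cluster 1, chr19:4329055-4329075, minus strand: TGCaggaaaTGCaaagctTGT
Kdm2b, cluster 1, chr5:123338641-123338661, minus strand: TGCcgcaagTGCgaggccTGC
Fbxl19, cluster 1, chr7:134891842-134891862, plus strand: TGCcgtcgtTGCcgggccTGT
Cxxc4, cluster 1, chr3:133903542-133903562, plus strand: TGTggggtcTGCgtgcccTGC
Kdm2a, cluster 2, chr19:4329022-4329042, minus strand: TGTggagtcTGCcactacTGC
Kdm2b, cluster 2, chr5:123338608-123338628, minus strand: TGTggagagTGCcactttTGC
Fbxl19, cluster 2, chr7:134891875-134891895, plus strand: TGCggggacTGCcatttcTGC
Cxxc4, cluster 2, chr3:133903578-133903598, plus strand: TGTggcgtcTGCagcagtTGC
The 3 codons in capitals stand at the same spacing in all 8 sequences because the search asked for that spacing. Over the 21 bases of the first cluster Kdm2a and Kdm2b differed at 7, Kdm2a and Fbxl19 at 9, and Kdm2b and Fbxl19 at 7. Cxxc4 had 8 to 11 differing bases against the other 3 in the first cluster and 6 to 9 in the second. Its 8 from Kdm2b in the first cluster were fewer than the 9 between Kdm2a and Fbxl19. In the second cluster Kdm2a and Kdm2b differed at 4 bases and each differed from Fbxl19 at 5.

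On NCBIM37 the genes lie apart from each other, except that the targeted gene has a member as its neighbour. Kdm2a (ENSMUSG00000054611) spans chr19:4316144-4398285 on the minus strand and Kdm2b (ENSMUSG00000029475) chr5:123320677-123465089 on the minus strand. Fbxl19 (ENSMUSG00000030811) spans chr7:134890289-134912441 and Cxxc4 (ENSMUSG00000044365) chr3:133899784-133925117, both on the plus strand. Cxxc5 (ENSMUSG00000046668) spans chr18:35989472-36021341 on the plus strand. Mbd1 (ENSMUSG00000024561) spans chr18:74427926-74442339 on the plus strand, 46.78 kb downstream of Cxxc1 with 0 annotated genes between them. No member shared exons with another gene on its own strand. On the opposite strand 206 exonic bases of Kdm2b and 217 of Cxxc4 overlapped other genes, which stranded counting keeps apart.

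Total counts per biological replicate were 14880589 to 29422711. Cxxc1 had 616 to 1412 raw counts in the 4 WT libraries and 1 to 5 in the 4 Cfp1-/- libraries, where 3 counts were taken as the floor, so the libraries matched their genotype labels. The 6 pluripotency markers were present in every group, although their summed normalized count was 40137 to 60695 in untreated and 15890 to 22734 in treated libraries. The 4 fibroblast markers summed to 60.0 to 175 in untreated and 296 to 476 in treated libraries, mostly through Col1a1, at 5.07 to 90.9 in untreated and 201 to 365 in treated libraries. Thy1 was higher in treated libraries as well, at 27.8 to 48.0 in untreated and 55.1 to 86.6 in treated ones. Col1a2 stayed between 16.1 and 55.2 and Postn at or below 12.5 in all 8 libraries, with Postn at 0 in 1 of them. The 4 primitive endoderm markers summed to at most 87.8, and the 3 mesoderm markers to at most 342. The 2 early neural markers found, Pax6 and Nes, summed to 1155 to 3774 in WT and 498 to 1176 in Cfp1-/- libraries. In WT Pax6 was at 1761 and 738 untreated and at 74.7 and 27.5 treated. Nes was at 1026 and 3036 untreated and at 1081 and 3318 treated there. The pluripotency sum also joined genes that differed between the untreated lines in opposite directions. Nanog was at 6419 and 3651 in WT and at 14050 and 13038 in Cfp1-/- cells. Zfp42 was at 15661 and 9967 in WT and at 5035 and 5077 in Cfp1-/- cells. The part of these shifts in the members' values was not tested, and in bulk RNA fewer cells with a transcript and less transcript per cell cannot be told apart. The second run of replicate 1 of treated Cfp1-/- cells lacked counts for 209 of 291 well counted genes of chromosome 19 and 225 of 280 of chromosome X, and for 0 of 216 of chromosome 18. Kdm2a lies on chromosome 19 before the first lost gene and kept its counts in that run. The runs of treated WT replicate 1 also disagreed (chi-square per degree of freedom 9.61, beside 42.9 for the library with lost counts). In the other libraries it was 0.998 to 1.05. In treated WT replicate 1 the second run held 36.7% of all counts and 32.8% to 42.1% of each member's. The cause was not tested. With first runs alone 2 members were called in the WT response, as in the main fit.

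The 6 genes differed widely in level once their counts were divided by exon length. In untreated WT ES cells the highest were Fbxl19, at 621 ± 23.6 normalized counts per kb of exon (SD, n = 2), and Kdm2a, at 545 ± 13.0. Cxxc5 followed at 280 ± 13.8, Kdm2b at 200 ± 19.1 and Mbd1 at 168 ± 8.14 normalized counts per kb. Cxxc4 stood far below them at 2.01 ± 0.545 normalized counts per kb. The median tested gene had 92.3 normalized counts per kb in this group, which places Fbxl19 at the 83.9th percentile and Cxxc4 at the 10.7th. In treated Cfp1-/- cells the order was Kdm2a at 450 ± 26.7, Fbxl19 at 270 ± 0.721, Cxxc5 at 261 ± 56.3, Kdm2b at 130 ± 8.70, Mbd1 at 110 ± 11 and Cxxc4 at 32.5 ± 9.17 normalized counts per kb. Fbxl19 and Cxxc5 did not differ beyond their spread there, and Mbd1 was close to the median tested gene at 105. The level of Kdm2b depended on the length used, since its exons join to 11.818 kb over 23 transcripts while its longest transcript has 5259 bases. By that length Kdm2b reached 449 normalized counts per kb in untreated WT cells.

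**Figure D1:**
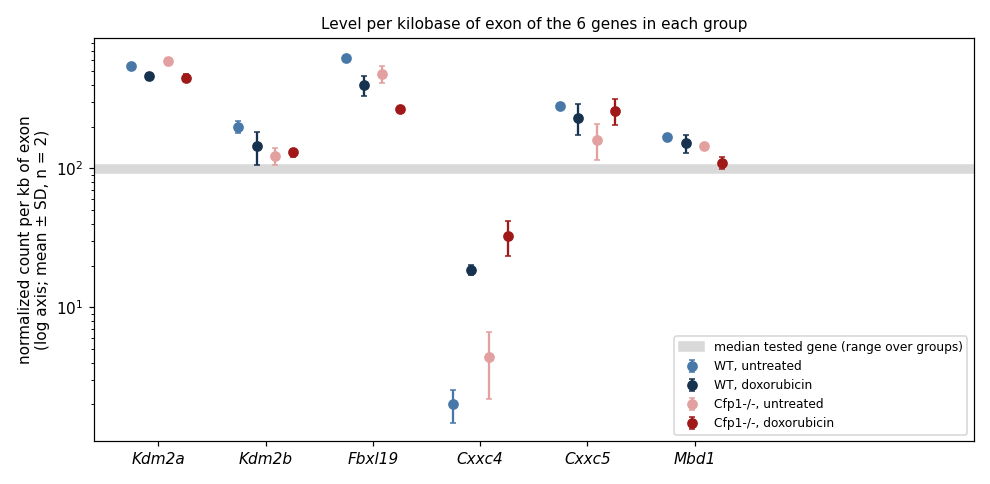
Normalized counts per kb of exon (log axis) of the 6 genes in the 4 groups, as means with SD bars over 2 biological replicates. The grey band spans the median tested gene of each group, from 92.3 to 105. The lowest points are the 4 groups of Cxxc4, from 2.01 to 32.5, and the points of the other 5 genes stand above the band.

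Cxxc4 was the member with the largest changes. Its raw counts were 10 and 12 in untreated WT, 70 and 97 in treated WT, 16 and 37 in untreated Cfp1-/- and 133 and 211 in treated Cfp1-/- replicates 1 and 2. As normalized counts these were 8.49 and 12.5, 91.7 and 102, 14.8 and 31.3, and 136 and 203. No ranges overlapped, so the groups were ordered from untreated WT through untreated Cfp1-/- and treated WT to treated Cfp1-/-. All 8 libraries were above the floor of 3 counts, a level that Cxxc1 itself passed in Cfp1-/- libraries, with up to 5 counts. The untreated WT values rest on 10 and 12 counts, of which the second runs gave 3 and 2.

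Fbxl19 was highest in untreated WT cells and lowest in treated Cfp1-/- cells. Its normalized counts were 2173 and 2059 in untreated WT, 1204 and 1511 in treated WT, 1481 and 1803 in untreated Cfp1-/- and 918 and 922 in treated Cfp1-/- replicates. Treated WT and untreated Cfp1-/- overlapped, and the other neighbours in this order did not.

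The JmjC demethylases differed from each other in pattern. Kdm2a had 4218 and 4078 normalized counts in untreated WT, 3646 and 3362 in treated WT, 4688 and 4329 in untreated Cfp1-/- and 3571 and 3283 in treated Cfp1-/- cells, so both untreated groups lay above both treated groups. Kdm2b had 2522 and 2203 in untreated WT, 2043 and 1393 in treated WT, 1596 and 1310 in untreated Cfp1-/- and 1614 and 1468 in treated Cfp1-/- cells. Both Kdm2b replicates of untreated WT were above all 6 other libraries, which overlapped among themselves.

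Cxxc5, the relative of Cxxc4, had its lowest replicate in untreated Cfp1-/- cells. Its normalized counts were 658 and 614 in untreated WT, 622 and 434 in treated WT, 440 and 292 in untreated Cfp1-/- and 682 and 501 in treated Cfp1-/- replicates. Untreated Cfp1-/- overlapped treated WT, and each of the other neighbours in order overlapped too. Mbd1 had 505 and 471 normalized counts in untreated WT, 396 and 485 in treated WT, 429 and 409 in untreated Cfp1-/- and 340 and 295 in treated Cfp1-/- cells, and only the treated Cfp1-/- group stood apart from its neighbour.

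**Figure D2:**
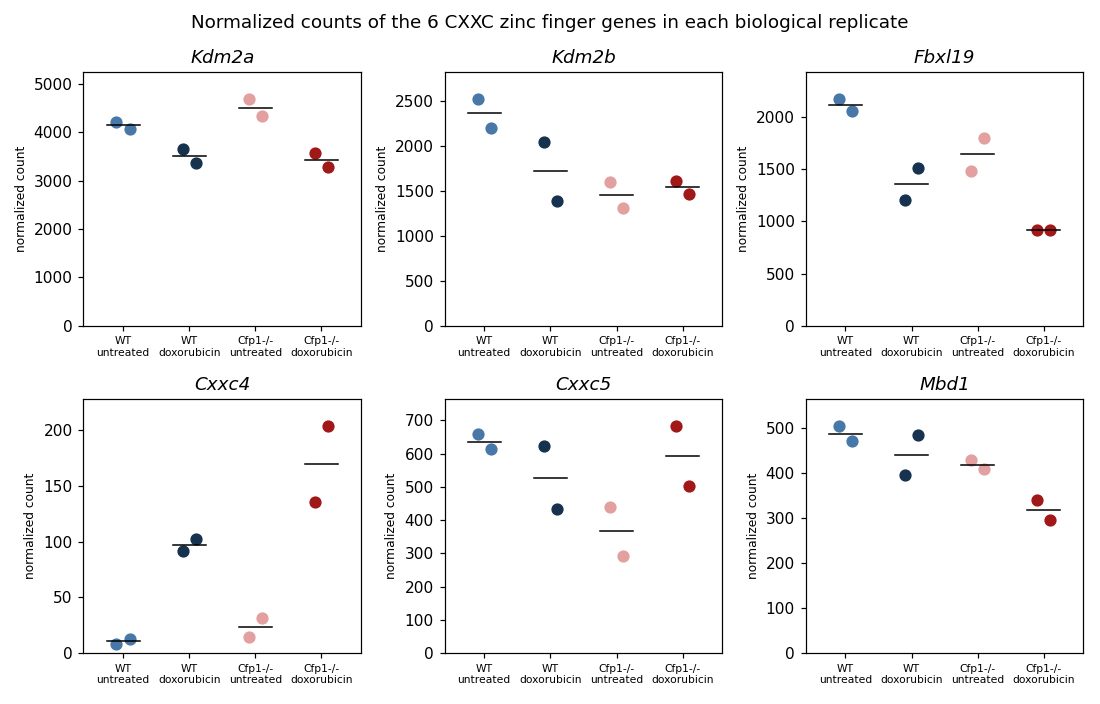
Normalized counts (linear axes from 0, a scale for each gene) of the 6 genes in each of the 8 biological replicates. Points are replicates 1 (left) and 2 (right), and bars are group means. Cxxc4 runs from 8.49 to 203, and Fbxl19 falls to 918 and 922 in treated Cfp1-/- cells.

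The first comparison asked how the 6 genes responded to doxorubicin in WT ES cells. Cxxc4 rose 9.56-fold (log2 fold change 3.26, SE 0.445, edgeR adjusted p = 2.98e-04). Fbxl19 fell, to 0.663 of its untreated level (log2 fold change -0.59, SE 0.154, edgeR adjusted p = 0.0103). These 2 of the 6 genes passed, where 48.3% of all 15758 genes tested passed in either direction, 26.5% higher and 21.8% lower, so the share of members called was not above that of all genes. The replicates did not overlap for 4 of the 6 genes and for 73.5% of all genes. The median log2 fold change of the members was -0.21 and that of all genes tested 0.06.

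The other 4 genes did not pass in WT cells. Their log2 fold changes were -0.41 for Kdm2b (SE 0.193, edgeR adjusted p = 0.103), -0.22 for Cxxc5, -0.20 for Kdm2a and -0.10 for Mbd1, the last with an approximate 95% interval from -0.45 to 0.25. With the replicate number as a block Kdm2b passed (edgeR adjusted p = 0.0145), as it did without replicate 1 of treated WT (log2 fold change -0.72, edgeR adjusted p = 0.0167). Without replicate 2 of treated WT its log2 fold change was -0.17 (edgeR adjusted p = 0.507), and with libraries scaled by their total counts it was -0.10 (0.693). Fbxl19 no longer passed without replicate 1 of untreated WT (log2 fold change -0.55, edgeR adjusted p = 0.0566) or of treated WT (-0.44, edgeR adjusted p = 0.0745), nor with total count scaling (-0.28, edgeR adjusted p = 0.168). That scaling moved the median of all genes by 0.31 in this comparison and turned the estimates of Kdm2a, Cxxc5 and Mbd1 above 0. Relative to that median all 3 stayed lower.

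In Cfp1-/- ES cells 4 of the 6 genes passed, where 48.8% of all genes did (27.8% higher, 21.0% lower). These 4 calls among 6 genes were near the background. Cxxc4 rose 7.50-fold (log2 fold change 2.91, SE 0.400, edgeR adjusted p = 3.32e-04) and Cxxc5 rose 1.66-fold (log2 fold change 0.73, SE 0.258, edgeR adjusted p = 0.0393). Fbxl19 fell to 0.577 of its untreated level (log2 fold change -0.79, SE 0.155, edgeR adjusted p = 0.00235), and Kdm2a to 0.783 (log2 fold change -0.35, SE 0.122, edgeR adjusted p = 0.0359). Mbd1 (log2 fold change -0.36, edgeR adjusted p = 0.130) and Kdm2b (0.13, edgeR adjusted p = 0.616) did not pass. Replicates did not overlap for 5 of the 6 genes, Kdm2b being the exception, and for 77.5% of all genes. The median log2 fold change was -0.11 over the members and 0.01 over all genes.

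The Cxxc4 and Fbxl19 calls in Cfp1-/- cells held without any 1 library, whereas those of Kdm2a and Cxxc5 did not. Kdm2a kept its direction but missed the threshold without any 1 of the 4 Cfp1-/- replicates. Its log2 fold change was -0.44 without treated replicate 1 (edgeR adjusted p = 0.0508), -0.29 without treated replicate 2 (0.176), -0.30 without untreated replicate 1 (0.137) and -0.42 without untreated replicate 2 (0.0573). It was -0.14 with total count scaling (edgeR adjusted p = 0.363). Cxxc5 was at 0.45 without replicate 2 of untreated Cfp1-/- (edgeR adjusted p = 0.250) and at 0.47 without replicate 1 of treated Cfp1-/- (0.254). It was at 0.69 without either untreated WT replicate (edgeR adjusted p = 0.0546 and 0.0538) and at 0.64 without the run with lost counts (0.0536).

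The comparison of Cfp1-/- with WT without doxorubicin asked what the loss of Cfp1 was accompanied by in unstressed cells. Kdm2b was lower in Cfp1-/- cells, at 0.627 of the WT level (log2 fold change -0.67, SE 0.193, edgeR adjusted p = 0.0237). Cxxc5 was lower as well, at 0.588 (log2 fold change -0.77, SE 0.258, edgeR adjusted p = 0.0446). Among all genes 16.1% passed as lower, 17.9% as higher and 34.0% in either direction, so 2 calls among 6 genes were near the background. Replicates did not overlap for any of the 6 genes, nor for 69.9% of all genes. The members' median log2 difference was -0.26, beside 0.01 for all genes.

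Cxxc4 was 2.26-fold higher in the untreated Cfp1-/- libraries but did not pass (log2 difference 1.18, SE 0.472, edgeR adjusted p = 0.0803). It passed with the replicate block (edgeR adjusted p = 0.0361) and without replicate 1 of untreated Cfp1-/- (log2 difference 1.63, edgeR adjusted p = 0.0444). Without replicate 2 of untreated Cfp1-/- the log2 difference was 0.55 (edgeR adjusted p = 0.480), and with first runs alone it was 0.56 (0.492). Fbxl19 (log2 difference -0.34), Mbd1 (-0.19) and Kdm2a (0.15) did not pass either, and the approximate 95% interval of Mbd1, the neighbour of the targeted gene, ran from -0.54 to 0.16.

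Both genes stayed lower whichever library was left out, and both calls were lost without some of them. Kdm2b missed the threshold without replicate 1 of untreated WT (log2 difference -0.56, edgeR adjusted p = 0.111) or replicate 2 of untreated Cfp1-/- (-0.53, edgeR adjusted p = 0.139). Cxxc5 fell short without replicate 2 of untreated Cfp1-/-, at -0.49 (edgeR adjusted p = 0.240). Its log2 difference stayed near the full value, without a call, when untreated WT replicate 1 (-0.71, edgeR adjusted p = 0.130) or 2 (-0.82, 0.0909) or treated Cfp1-/- replicate 1 (-0.77, 0.0510) or 2 (-0.77, 0.0504) was left out. With total count scaling, which moved the median of all genes by 0.19 here, Kdm2b (log2 difference -0.48, edgeR adjusted p = 0.0743) and Cxxc5 (-0.58, 0.100) did not pass, and Kdm2a passed as higher (0.34, 0.0467).

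Under doxorubicin Fbxl19 was the 1 gene of the 6 that passed, lower in Cfp1-/- than in WT cells at 0.689 of the WT level (log2 difference -0.54, SE 0.155, edgeR adjusted p = 0.0309). Of all genes 10.8% passed as lower and 15.1% as higher, 25.9% in all, so 1 call among 6 genes was near the background. Cxxc4 was 1.77-fold higher (log2 difference 0.83, SE 0.362, edgeR adjusted p = 0.121) and passed with the replicate block (0.0381), which took the count from 1 to 2 genes, while without replicate 2 of treated Cfp1-/- its log2 difference was 0.52 (edgeR adjusted p = 0.494). Mbd1 was at 0.733 of the WT level and did not pass (edgeR adjusted p = 0.0986).

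Kdm2a, Kdm2b and Cxxc5 overlapped between the lines under doxorubicin, with log2 differences of -0.01, -0.13 and 0.19. For Kdm2a the approximate 95% interval ran from -0.25 to 0.23, and for Cxxc5 it ran from -0.31 to 0.70. The other 3 genes did not overlap, nor did 65.0% of all genes. The median log2 difference was -0.07 over the members and 0.02 over all genes. The Fbxl19 call was lost without replicate 2 of treated WT, where the log2 difference was -0.37 (edgeR adjusted p = 0.185), and with total count scaling, where it was -0.44 (0.0648). Without replicate 1 or 2 of treated Cfp1-/- it was -0.55 and -0.53, as large as in all libraries, and did not pass (edgeR adjusted p = 0.112 and 0.128).

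**Figure D3:**
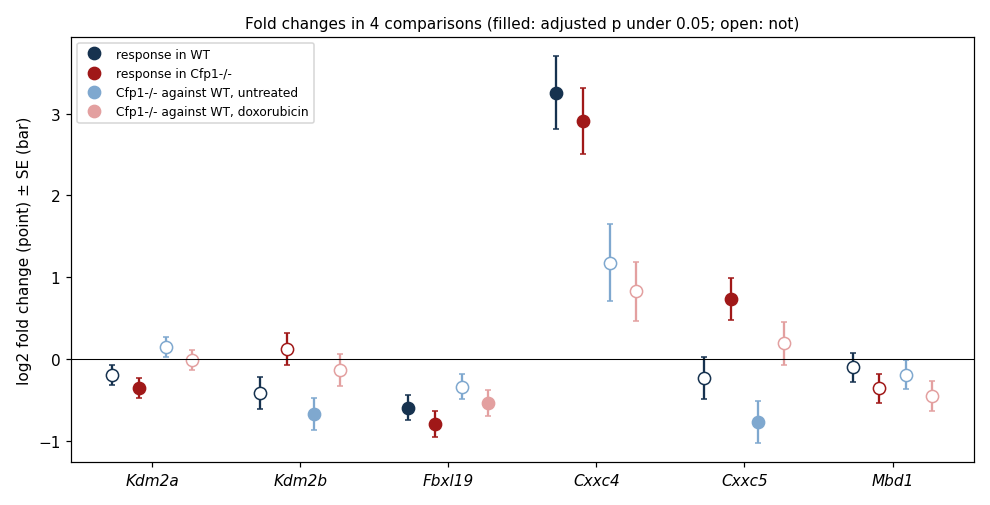
Log2 fold changes (points) with SE bars of the 6 genes in 4 comparisons, the doxorubicin responses of both lines and Cfp1-/- against WT in both conditions. Filled points had an adjusted p under 0.05. The responses of Cxxc4, 3.26 and 2.91, stand apart from all other points, of which 1.18 is the highest and -0.79 the lowest.

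The study's own call rule, used with DESeq on the WT response, also asked for a change of 2.5-fold or more and for 200 or more normalized counts on average. Here the same limits were put on the edgeR results of all 4 comparisons, with the mean taken over the libraries compared. With these limits 0 of the 6 genes were called in any of the 4 comparisons. Of all genes 7.91% and 7.61% were called in the responses of WT and Cfp1-/- cells, and 3.33% and 2.61% in the untreated and treated comparisons of the lines. Cxxc4 passed the fold limit in both responses, and its means of 53.8 and 96.3 normalized counts were under the count limit.

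The response difference, the response in Cfp1-/- cells minus that in WT cells, was tested as an interaction. By edgeR 0 of the 6 genes passed, 1 (Cxxc5) had an unadjusted p under 0.05 as 10.6% of all genes did, and DESeq2's Wald test called 0, while 0.235% of all genes passed. Cxxc5 had the largest difference, at 0.96 on the log2 scale (SE 0.364, edgeR adjusted p = 0.402). In WT cells its normalized count changed by -0.08 and -0.50 on the log2 scale in replicates 1 and 2, and in Cfp1-/- cells by 0.63 and 0.78.

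Kdm2b had the next largest response difference, at 0.54 (SE 0.272, edgeR adjusted p = 0.528). Its changes were -0.30 and -0.66 in WT and 0.02 and 0.16 in Cfp1-/- replicates, the last 2 within the spread of that line. Cxxc4, which rose in both lines, had a response difference of -0.35 with an approximate 95% interval from -1.50 to 0.80. The estimates for Mbd1, Fbxl19 and Kdm2a were -0.26, -0.20 and -0.16. Over the members the median was -0.18 and over all genes 0.00.

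**Figure D4:**
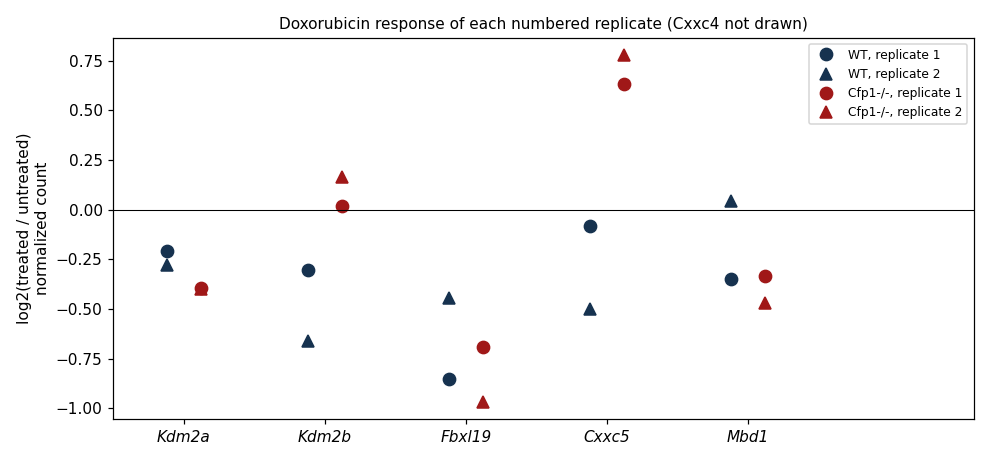
Log2 ratio of treated to untreated normalized counts for same-numbered replicates of WT (dark blue) and Cfp1-/- cells (red), with circles for replicate 1 and triangles for replicate 2. Cxxc5 lies below 0 in WT (-0.08 and -0.50) and above 0 in Cfp1-/- cells (0.63 and 0.78), and Fbxl19 lies below 0 in all 4 pairs.

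The genes that work with the members were read from lists of partners. Of all genes tested, as above, 21.8% fell and 26.5% rose in WT and 21.0% fell and 27.8% rose in Cfp1-/- cells under doxorubicin. Between the lines 16.1% were lower and 17.9% higher in untreated Cfp1-/- cells, and 10.8% and 15.1% under doxorubicin. The counts of each list stand beside these shares without a test of the list. Of 9 genes of the Kdm2b complex PRC1.1, 4 fell and 0 rose under doxorubicin in WT cells, and 3 fell and 1 rose in Cfp1-/- cells (4 and 1 without the run with lost counts). Under total count scaling 2 fell in each line. Bcor, the corepressor that holds this complex together, fell in WT from 1690 ± 143 to 509 ± 62.3 normalized counts (log2 fold change -1.69, edgeR adjusted p = 2.33e-05) and in Cfp1-/- cells, without the run that lost chromosome X, it fell by 1.40 on the log2 scale. Rnf2, its ubiquitin ligase, fell in WT from 4543 ± 300 to 2710 ± 120 (log2 fold change -0.70, edgeR adjusted p = 0.00142), and Rybp fell by 0.78 there. In untreated Cfp1-/- cells, where Kdm2b was lower, Bcor was higher than in WT (log2 difference 0.80), Skp1 was higher (0.57) and the deubiquitinase Usp7 was lower (-0.47), and the other 6 genes of the complex did not pass. Usp7 was at -0.28 with total count scaling, under which 2 genes were higher and 0 lower in that comparison.

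Of 8 enzymes that add or remove H3K36 methylation, the mark that Kdm2a and Kdm2b act on, 5 fell under doxorubicin in WT (21.8% of all genes) and 4 in Cfp1-/- cells (21.0%), and 0 rose in either (26.5% and 27.8%). The demethylase Kdm4c fell in WT from 7796 ± 146 to 2263 ± 216 normalized counts (log2 fold change -1.74, edgeR adjusted p = 8.64e-06) and in Cfp1-/- cells by 1.22 on the log2 scale. The methyltransferase Nsd1 fell by 0.93 in WT and by 0.85 in Cfp1-/- cells. In untreated Cfp1-/- cells 5 of the 8 were lower than in WT (16.1% of all genes), led by the methyltransferase Nsd2 (log2 difference -1.37, edgeR adjusted p = 9.62e-04). Under doxorubicin 2 were lower (10.8% of all genes). The medians of these 8 genes were -0.58 and -0.40 in the responses of WT and Cfp1-/- cells, beside 0.06 and 0.01 over all genes. With total count scaling 3 fell and 1 rose in WT, and 2 were lower and 1 higher in untreated Cfp1-/- cells.

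Fbxl19's partners were taken as 8 genes of the Mediator kinase module and the histone H2B ligase. In WT cells 6 of them fell and 1 rose with doxorubicin, and in Cfp1-/- cells 6 fell and 0 rose, beside 21.8% and 21.0% of all genes that fell. Cdk8, the kinase of the module, fell by 0.84 in WT (edgeR adjusted p = 0.00183) and by 0.68 in Cfp1-/- cells, while its paralog Cdk19 rose in WT by 0.85 on the log2 scale. The H2B ligase subunit Rnf20 fell by 0.85 in WT and by 0.84 in Cfp1-/- cells. With total count scaling 2 fell and 1 rose in WT and 5 fell and 1 rose in Cfp1-/- cells. In untreated Cfp1-/- cells Rnf40, the partner of Rnf20, was higher than in WT (log2 difference 0.81) and Cdk8 was lower (-0.55). Of the 8 genes 3 were higher and 2 lower there, beside 17.9% and 16.1% of all genes. Cdk8 was at -0.36 with total count scaling, under which 4 were higher and 0 lower.

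Of 12 genes of the Dishevelled and Wnt branch with Tet2, the partners of Cxxc4 and Cxxc5, 3 fell and 1 rose in WT and 4 fell and 1 rose in Cfp1-/- cells under doxorubicin. With total count scaling 3 fell in each line, and 3 rose in WT. Lef1, a transcription factor of the pathway, fell in WT from 2126 ± 538 to 192 ± 26.4 normalized counts (log2 fold change -3.42, edgeR adjusted p = 2.33e-04) and in Cfp1-/- cells by 2.47 on the log2 scale. Tet2, which lies in the same family of Tet enzymes as the CXXC-bearing Tet1 and Tet3, changed by -2.05 in WT and -1.83 in Cfp1-/- cells on the log2 scale. Axin2, a target and inhibitor of the pathway, changed by -1.17 and -1.64. In untreated Cfp1-/- cells 2 of the 12 were higher and 3 lower than in WT (17.9% and 16.1% of all genes). With total count scaling 3 were higher and 3 lower. Lef1 was lower, at 598 ± 399 against 2126 ± 538 normalized counts (log2 difference -1.80), and so was Axin2 (-1.18). Dvl1, a Dishevelled, was lower as well, at 338 ± 41.7 against 847 ± 64.4 (log2 difference -1.30, edgeR adjusted p = 5.28e-04). Under doxorubicin 1 was higher, Tcf7 (0.75), and 2 were lower, Dvl1 (-1.21) and Axin2 (-1.65), beside 15.1% and 10.8% of all genes.

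Mbd1 was set beside 11 methyl-CpG binding proteins and partners, of which 2 rose and 3 fell in WT and 2 rose and 4 fell in Cfp1-/- cells under doxorubicin. Mbd6 rose in both lines, from 71.1 ± 5.62 to 298 ± 126 normalized counts in WT (log2 fold change 2.11, edgeR adjusted p = 0.00128) and by 1.19 on the log2 scale in Cfp1-/- cells. The H3K9 methyltransferase Setdb1, a partner of Mbd1, fell in Cfp1-/- cells by 0.64. Mbd3, a subunit of the NuRD complex, was lower in Cfp1-/- than in WT cells untreated (log2 difference -0.77, edgeR adjusted p = 0.00460) and treated (-0.79). With total count scaling 3 of the 11 rose and 1 fell in WT, and 2 rose and 2 fell in Cfp1-/- cells.

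Among the 6 remaining CXXC-domain genes, Cxxc1 included, 1 rose and 0 fell in each line under doxorubicin, and with total count scaling 3 rose in WT. The gene called in both lines was Tet3, an enzyme that oxidizes 5-methylcytosine, which rose in WT from 481 ± 99.8 to 1555 ± 42.3 normalized counts (log2 fold change 1.74, edgeR adjusted p = 4.33e-05) and by 1.82 on the log2 scale in Cfp1-/- cells. Beside Cxxc1, Dnmt1, the maintenance DNA methyltransferase, was lower in Cfp1-/- than in WT cells untreated (log2 difference -0.44, edgeR adjusted p = 0.0225) and treated (-0.41). The Dnmt1 differences were -0.25 and -0.31 with total count scaling, under which Cxxc1 was the 1 gene of the 6 that passed as lower in either condition. Kmt2b, an H3K4 methyltransferase, was higher in untreated Cfp1-/- cells (log2 difference 1.06, edgeR adjusted p = 0.00861).

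The genes whose pattern over the 8 libraries was most like that of each member were found by Pearson's r of log2(normalized count + 1) among 9498 or 9499 genes with a mean of at least 200. They were Klhdc10 (r = 0.994) and Col9a3 (0.991) for Cxxc4, Vta1 and Cdc45 (both 0.995) for Fbxl19, and Prr11 (0.989) and Kif14 (0.988) for Kdm2a. Arid1a (0.975) and Zfp192 (0.963) were closest to Kdm2b, Terf2ip (0.978) and Asf1b (0.976) to Mbd1, and Enc1 (0.930) and Foxo1 (0.920) to Cxxc5. Between members the highest r was 0.884, for Fbxl19 and Mbd1, and the lowest -0.879, for Fbxl19 and Cxxc4. The 8 points share 4 groups and a common scaling, so these values only describe likeness.

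Promoters bear on these genes because their products bind CpG. RefSeq windows (GRCm38.p6) from 250 bases before to 50 after a start were found for 3 of the 6 genes, 7 windows in all, and the letters CG were counted in each. The window of Cxxc4 held 26 CG, those of Kdm2b 18, 47, 28 and 49, and those of Fbxl19 14 and 16, beside a median of 7 over 32851 windows. At least as many CG stood in 16.9% of all windows for Cxxc4, in 1.02% for the richest Kdm2b window and in 36.3% for the poorer Fbxl19 window. The count is a description of the sequence, and methylation of these windows was not analysed here.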

How the data were processed

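RNA depleted of ribosomal RNA was made into strand-specific libraries. The authors aligned paired reads to NCBIm37 with STAR (version 2.2.1 in the submitters' processing notes) and counted them on Ensembl exons with HTSeq-count (stranded, union). The raw table they deposited holds counts of 16 runs, not normalized. The second deposited table is a signal, the counts of each of 8 biological replicates summed over 2 runs and divided by a DESeq size factor, called normalized count here. The precision of a value follows from total counts of 14880589 to 29422711 and from 2 replicates a group, called biological in the labels, so p-values measure the spread between these samples.

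Summed counts were fitted with edgeR 4.0.16 (R 4.3.3, filterByExpr, TMM, a coefficient per group over all 8 libraries, glmQLFit, glmQLFTest, Benjamini-Hochberg over 15758 genes, threshold 0.05). SEs were derived from the test statistic, and the common dispersion was 0.0304. The approximate 95% intervals use the multiplier of a normal distribution. They are too narrow, because the tests rest on 4 residual and 5.62 prior degrees of freedom. Fits that left out a replicate left 1 library in a group, which was assumed to vary like the other groups. Alternatives were DESeq2's size factors, total count scaling, DESeq2 1.42.0 (Wald), no filter, the replicate block, 2 groups alone, first runs alone, the faulty run left out, other length units and each replicate left out. On simulated counts with 200 genes changed 3-fold, 97% were recovered for the WT response (7 false calls) and 79% for the response difference (6 false calls). The changed genes were drawn from well counted genes, with the dispersion of the fitted trend. Smaller changes, as most members had, and changes in genes of low count were not simulated.

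Same-numbered replicates deviated together (r of deviations over 9499 genes 0.184 to 0.610 for the 6 pairs of groups), although no source states what they share. The numbers were treated as pairing samples only in the replicate block and in the ratios of same-numbered replicates. The main fit had no block, so its p-values are unpaired. The members and the lists of partners were chosen with earlier results of these data known. All members are named in every comparison. Of each partner list the called genes with the largest changes, at most 3 per comparison, could be named, Cxxc1 aside. Sequences are from NCBIM37 with GENCODE M1 and, for promoters, RefSeq. No sequence is printed for Cxxc5 and Mbd1.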

Additional observations from a re-analysis of the deposited data

Results flagged for a closer look

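Kdm2b was picked out because the treated to untreated ratio of its normalized counts was below 1 in both same-numbered pairs of WT (-0.30 and -0.66 on the log2 scale) and above 1 in both of Cfp1-/- cells (0.02 and 0.16), with a response difference of 0.54. No direction was established in Cfp1-/- cells, where the replicates overlapped (log2 fold change 0.13, edgeR adjusted p = 0.616) and the estimate ran from -0.023 to 0.27 when single replicates were left out. The interaction test of this difference did not pass (edgeR adjusted p = 0.528, and 0.164 with the replicate block).

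Cxxc5 showed the same kind of split, with a response difference of 0.96 on the log2 scale. Both pairs went down in WT (-0.08 and -0.50) and up in Cfp1-/- cells (0.63 and 0.78). Its interaction test did not pass either (edgeR adjusted p = 0.402, and 0.0602 with the replicate block), and the estimate lay between 0.68 and 1.27 when single replicates were left out. With 2 replicates a group no group could be tested for a library far from the others.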

How the results depend on the processing

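Of 474 values of single genes under an alternative, 424 kept their direction and side of the threshold, 27 lost a call, 6 gained one and 17 turned sign. The 474 include fits that left out a library outside the groups compared, which could move the estimate only a little. Leaving out the faulty run likewise could hardly move comparisons without treated Cfp1-/- cells. The 424 therefore overstate how well the values held. Leaving out a replicate gave 1 to 2 members called in the WT response, 2 to 4 in the Cfp1-/- response, 0 to 3 in the untreated and 0 to 1 in the treated comparison of the lines, and 0 for the response difference. Total count scaling gave 1 in the WT response, 1 untreated and 0 treated. It moved the median of all genes by 0.31, 0.21, 0.19 and 0.09 in these 4 comparisons and turned, in the WT response, Kdm2a (0.12), Cxxc5 (0.090) and Mbd1 (0.21), in untreated cells Mbd1 (7.02e-04) and in treated cells Kdm2a (0.085). With first runs alone Kdm2a in treated cells (0.020) and the response difference of Cxxc4 (0.16) turned.

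Sign turns when a replicate was left out concerned estimates that had not passed. In the WT response Cxxc5 ranged from -0.51 to 0.0072 and Mbd1 from -0.26 to 0.032, and in the Cfp1-/- response Kdm2b from -0.023 to 0.27. In the treated comparison Kdm2a ranged from -0.085 to 0.061, Kdm2b from -0.39 to 0.16 and Cxxc5 from -0.065 to 0.47, and the response difference of Cxxc4 from -0.79 to 0.28. Per longest transcript Mbd1 in treated Cfp1-/- cells was below the median gene (-0.17). The cause was not tested.

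The replicate block gave 3, 4, 3, 2 and 0 members called in the WT response, the Cfp1-/- response, the untreated and treated comparisons and the response difference, by adding Kdm2b in the WT response and Cxxc4 in both comparisons of the lines, and it changed no other member's call. With 10 and 12 raw counts in untreated WT cells, the fold change of Cxxc4 is the least precise.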
